A study of Mus musculus with 16 samples.

Results

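The p53 target genes described here were Cdkn1a, Mdm2, Phlda3, Zmat3, Bax, Tnfrsf10b, Ccng1, Eda2r, Trp53inp1 and Gadd45g. They were taken by symbol from a deposited gene table, and all 10 were found among its 47069 genes. RNA sequencing measured them in mouse liver and liver tumours from animals given the carcinogen DEN (diethylnitrosamine), which is used to start hepatocellular carcinoma in rodents. The labels define 6 groups. Livers at an age of 5 months came from mice on a high-fructose diet (2 libraries) or a cornstarch diet (3 libraries). Livers at 9 months had 3 libraries under each diet. Tumour tissue from the liver at 9 months had 3 libraries under fructose and 2 under cornstarch. Every group had received DEN, so none shows these genes in a liver without the carcinogen. The labels give no strain, genotype, sex or pooling, and they leave unsaid how many mice the libraries represent and whether a tumour and a liver shared a mouse. P-values therefore measure the spread between these libraries only.

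p53 is a transcription factor that is kept scarce by continual destruction and accumulates when DNA is damaged, when oncogenes are active or when ribosomes and nutrients fail. It then switches on genes that stop the cell cycle, start apoptosis, repair DNA and, through Mdm2, restore its own destruction. In the liver, DEN is turned into a DNA-alkylating agent by cytochrome P450 enzymes of hepatocytes, and p53 targets are among the genes that damaged hepatocytes transcribe. Many of these genes also answer to other signals: Cdkn1a follows several growth and cytokine pathways, and Gadd45g is induced by cytokines and other stress, while Gadd45a is the member of its family best known as a p53 target.

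p53 binds as a tetramer to a pair of 10-base motifs, here called decamers, each with a C and a G as its fixed core bases. The RefSeq promoter table (GRCm38.p6, 250 bases before to 50 after each annotated start) held 8 windows for 7 of the genes, and Zmat3, Tnfrsf10b and Trp53inp1 had no entry. The windows of 4 genes held at least 1 exact match to the p53 consensus decamer, and their upstream sequences are shown because they place the decamers next to genes whose levels are given below. Capitals mark exact decamers and, in Cdkn1a and Bax, also the partner decamers of a pair with at most 2 mismatches in total and at most 13 bases between them. The consensus is its own reverse complement, so 1 search covers both strands. Each line runs 5′ to 3′ on the gene's strand, in the order Cdkn1a (chr17:29090729-29090978, plus strand), Bax (chr7:45466899-45467148, minus strand), Mdm2 (chr10:117710910-117710969, minus strand) and Ccng1 (chr11:40755437-40755496, minus strand).
Cdkn1a: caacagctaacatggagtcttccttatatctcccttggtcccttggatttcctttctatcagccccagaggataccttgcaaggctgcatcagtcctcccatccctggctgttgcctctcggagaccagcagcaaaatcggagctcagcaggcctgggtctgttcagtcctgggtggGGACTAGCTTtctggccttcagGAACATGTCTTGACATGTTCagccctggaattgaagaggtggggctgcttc
Bax: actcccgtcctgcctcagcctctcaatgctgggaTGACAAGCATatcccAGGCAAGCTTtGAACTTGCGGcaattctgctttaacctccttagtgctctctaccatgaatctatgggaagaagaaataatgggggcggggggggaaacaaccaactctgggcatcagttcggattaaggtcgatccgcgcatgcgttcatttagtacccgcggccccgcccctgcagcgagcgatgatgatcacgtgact
Mdm2: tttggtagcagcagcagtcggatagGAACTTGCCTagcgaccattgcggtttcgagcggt
Ccng1: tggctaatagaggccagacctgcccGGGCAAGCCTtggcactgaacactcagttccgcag
The window of the upstream of the 2 annotated Cdkn1a starts held 2 exact decamers. They began at positions -73 and -51 from that start and lay 12 bases apart. A further decamer with 1 mismatch adjoined the one at -51. An exact pair of this kind occurred in 24 of the 32851 windows (0.0731%). Bax had 1 exact decamer, at -201, with a partner on either side and 2 mismatches in each pair. A pair with up to 2 mismatches occurred in 2.12% of windows. Mdm2 and Ccng1 each had 1 exact decamer, at -186 and -185, and 8.36% of all windows held at least 1. No exact decamer lay in the windows of Phlda3, Eda2r and Gadd45g or in that of the downstream start of Cdkn1a (chr17:29093519-29093818). A match is a description of letters and not a measured binding site.

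The libraries held between 11232461 and 38377674 reads over the listed genes, and every value was a normalised count (reads divided by 1 size factor per library). Differences were tested on log2(value + 1) with limma, with p-values adjusted over all genes tested and a threshold of 0.05. Hepatocyte markers were abundant in all 16 libraries. Of the livers at 5 months, 2 libraries expressed Xist and little or none of the Y-linked genes Ddx3y, Uty and Eif2s3y. They were fructose replicate 1 and cornstarch replicate 1, and the labels do not mention this difference. The fructose livers at 5 months stood apart in their blood cell genes: all 12 neutrophil markers were higher, with summed normalised counts of 24028 and 26472 against 60.6 to 172 in the cornstarch livers of that age. Without strand information in the sources used here, 273 exonic bases of Cdkn1a are shared with AC167363.2 on the opposite strand, and 192 of Bax with Gm45808 on the same strand.

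**Figure D1:**
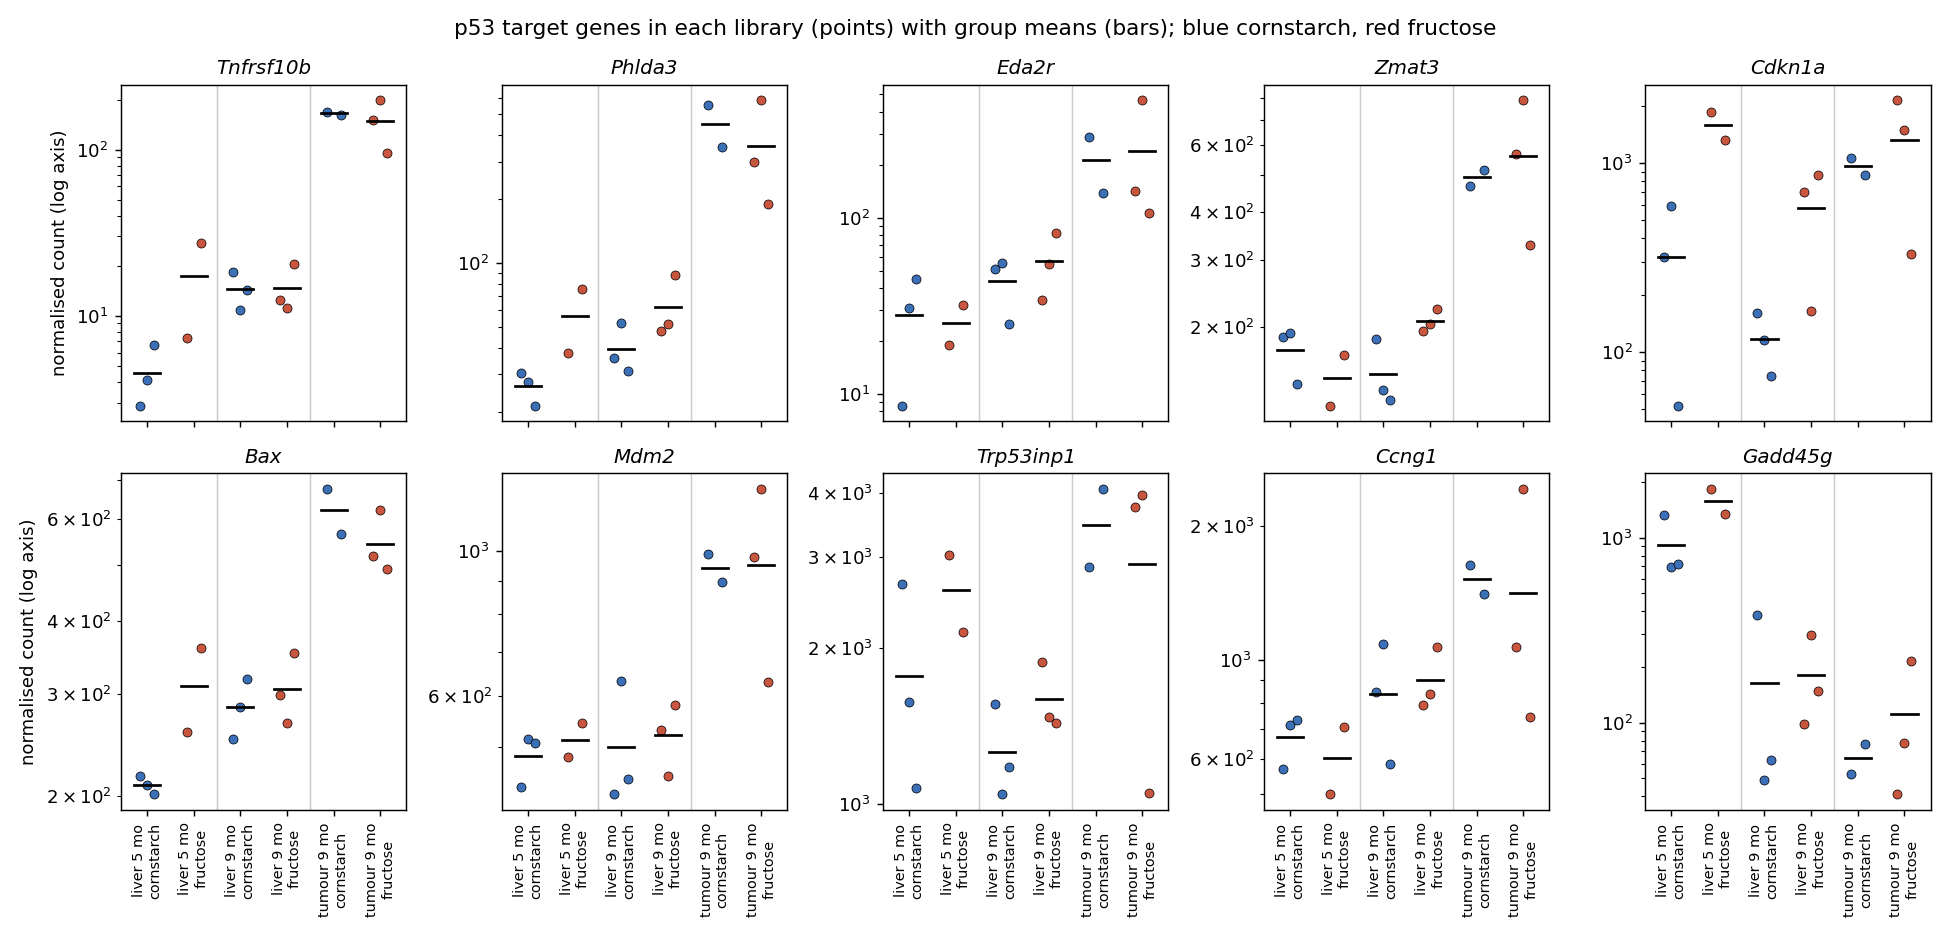
Normalised counts (vertical log axes) of the 10 p53 target genes in each of the 16 libraries (points) with the mean of each group (bars), by tissue, age and diet; blue is cornstarch and red fructose. Tnfrsf10b, Phlda3, Eda2r, Zmat3 and Bax have every tumour above every liver, Cdkn1a overlaps between the fructose livers at 5 months and the tumours, and Gadd45g is highest in livers at 5 months.

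Tumours carried more RNA of most p53 target genes than livers of the same age. Of the 10 genes, 8 were higher in the 5 tumours than in the 6 livers at 9 months and 0 were lower (limma), where 13.4% of all genes tested were higher and 10.5% lower. The rises ran from 1.83-fold for Mdm2 to 10.2-fold for Tnfrsf10b. For 5 genes every tumour lay above every liver at 9 months, as for 7.96% of all genes tested, and the same 5 also lay above every liver at 5 months (5.64% of genes). The median log2 fold change of the 10 genes was 1.30, beside -0.0055 over all genes. In a bulk tissue sample, more cells that express a gene and more RNA per cell cannot be told apart.

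Among the genes of apoptosis and survival, the death receptor gene Tnfrsf10b, which encodes the mouse receptor for the ligand TRAIL, differed most. Its normalised counts were 151, 198 and 94.8 in the fructose tumours and 169 and 162 in the cornstarch tumours. In livers at 9 months they were 12.5, 11.2 and 20.4 under fructose and 18.3, 10.8 and 14.3 under cornstarch. The lowest tumour was thus well above the highest liver, and the livers sat near the limit of detection, with between 7 and 45 reads each. The log2 fold change was 3.34 (SE 0.25, limma adjusted p = 6.58e-05).

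Phlda3, whose product competes with the survival kinase AKT for membrane lipids, had normalised counts of 298, 583 and 189.6 in fructose tumours and 552 and 349.8 in cornstarch tumours. The livers ranged from 31.0 to 87.5. The groups did not overlap, and the log2 fold change was 2.94 (SE 0.30, limma adjusted p = 0.000251), or 7.65-fold. Eda2r encodes a receptor of the TNF receptor family that binds ectodysplasin A2. Its tumour counts of 143, 464, 107, 288 and 138 stood above a liver range of 25 to 81.6, although the tumours differed among themselves by more than the gap to the livers (log2 fold change 2.03, SE 0.42, limma adjusted p = 0.00693). Bax, the BCL2 family member that opens the outer mitochondrial membrane, moved less but with little spread. It had 518, 621, 492, 677 and 567 in tumours and 251 to 353 in livers, a log2 difference of 0.98 (SE 0.12, limma adjusted p = 0.00061).

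Trp53inp1, a stress protein of the nucleus and of autophagosomes, was the least secure of the genes called. Its counts were 3748, 3957 and 1048 in fructose tumours, 2867 and 4072 in cornstarch tumours, and 1042 to 1882 in livers. Tumours above the livers numbered 4, and fructose tumour replicate 3 lay at the bottom of the liver range. The log2 fold change was 1.06 (SE 0.32, limma adjusted p = 0.0383). The call was lost in 9 of 11 fits that each left out 1 library, with adjusted p between 0.0536 and 0.157. The exceptions were the fits without cornstarch liver replicate 1 (0.0455) and without fructose tumour replicate 3 (0.000522).

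Of the genes of arrest and of feedback on p53, Mdm2 encodes the ubiquitin ligase that marks p53 for destruction. Its normalised counts were 978, 1244 and 629 in fructose tumours and 988 and 896 in cornstarch tumours, against 423 to 632 in the livers at 9 months. All tumours but fructose replicate 3 lay above every liver, and the log2 fold change was 0.87 (SE 0.18, limma adjusted p = 0.00756). Cdkn1a encodes p21, the inhibitor of cyclin-dependent kinases that carries much of the p53 arrest. It had 2150.2, 1502 and 332 in fructose tumours and 1070.2 and 865 in cornstarch tumours. In the livers it had 703, 165 and 868 under fructose and 161, 115 and 75.0 under cornstarch. The highest liver, fructose replicate 3, lay above 2 tumours, and the other 3 tumours exceeded every liver. The log2 difference of 2.12 (SE 0.55, limma adjusted p = 0.0190) was no longer past the threshold without cornstarch tumour replicate 1 (adjusted p = 0.0546) or replicate 2 (0.0655).

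Ccng1, a cyclin that brings a phosphatase to Mdm2, did not pass the test: it had 1070.3, 2427 and 745 in fructose tumours, 1636 and 1406 in cornstarch tumours and 585 to 1086 in livers (log2 fold change 0.69, SE 0.28, limma adjusted p = 0.101). It passed without fructose tumour replicate 3, its lowest tumour (0.88, adjusted p = 0.0273). Zmat3 encodes a zinc finger protein that binds RNA and acts on splicing and mRNA stability. It had 569, 787, 329, 469 and 517 in tumours and 129 to 223 in livers, with no overlap (1.54, SE 0.21, limma adjusted p = 0.000908). Gadd45g was the exception in direction. Its tumour counts of 40.9, 77.7, 216, 53 and 76.5 lay within or below the liver range of 49.2 to 381 (log2 fold change -0.80, SE 0.59, adjusted p = 0.356).

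**Figure D2:**
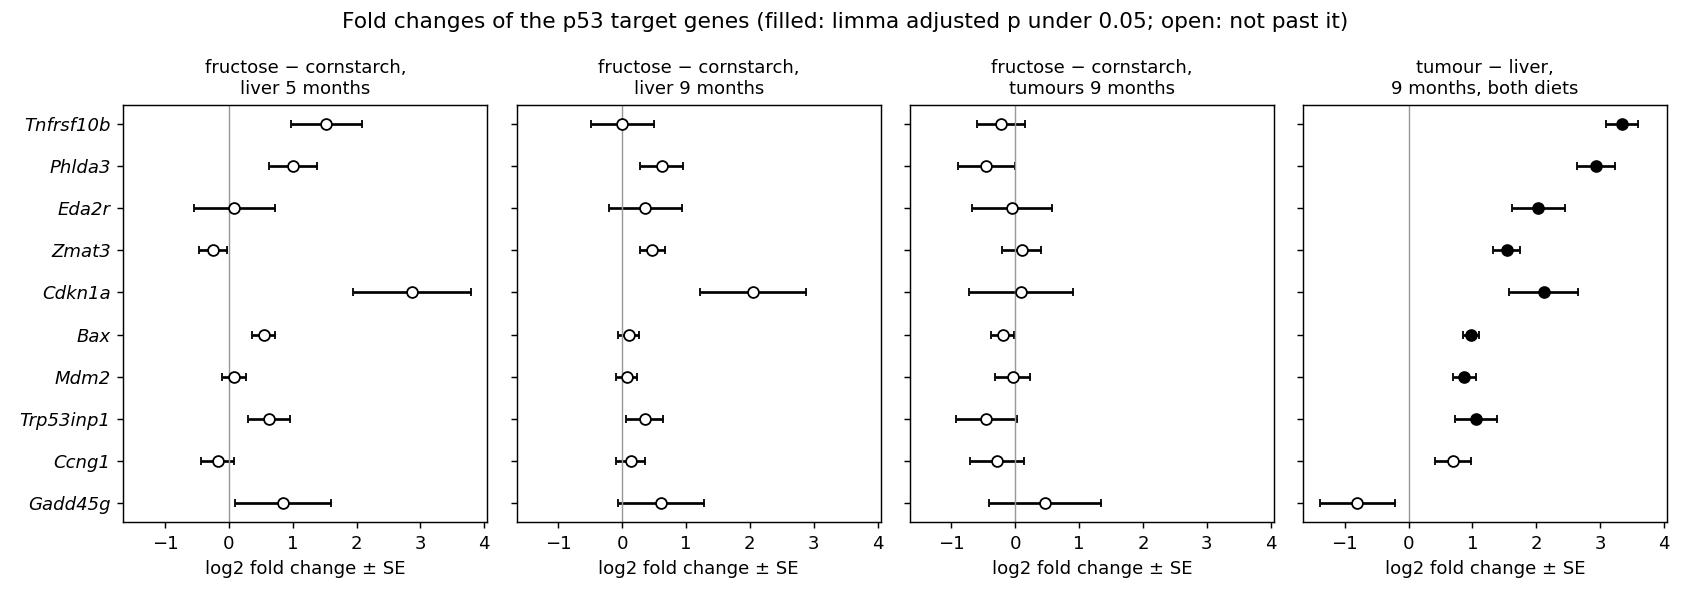
Log2 fold changes with standard errors (horizontal axis) of the 10 p53 target genes for fructose minus cornstarch in livers at 5 months, livers at 9 months and tumours, and for tumour minus liver at 9 months. Filled points passed the limma threshold of 0.05: there are 8 in the tumour comparison, all positive, and 0 in the 3 diet comparisons.

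The tumours were not alike. Fructose tumour replicate 3 had the lowest count of the 5 tumours in 9 of 10 genes, all except Gadd45g, where it had the highest. Fructose tumour replicate 2 had the highest count in 6 of 10. Within the fructose tumours the mean count of Cdkn1a was 1328 ± 921 (SD, n = 3), of Eda2r 238 ± 196 and of Trp53inp1 2918 ± 1622. In the cornstarch tumours the means were 967 ± 145 (SD, n = 2), 213 ± 106 and 3469.7 ± 852. The plot of centred levels by library shows the weak column of fructose tumour replicate 3.

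**Figure D3:**
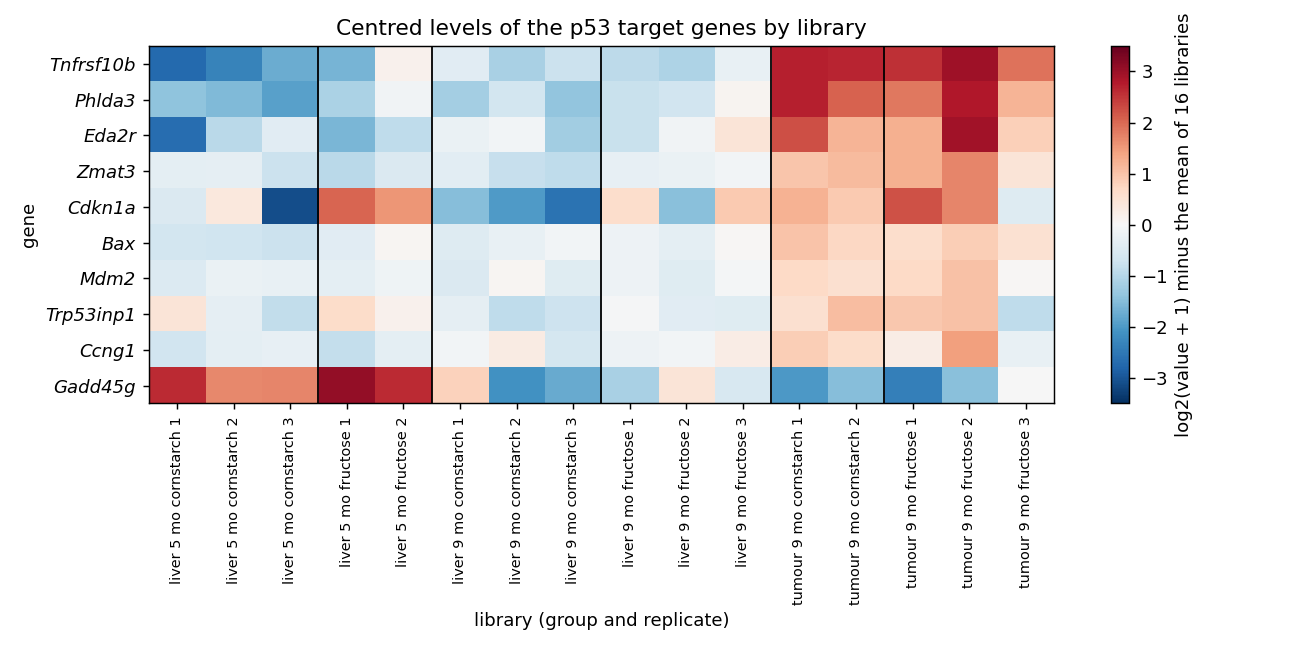
Levels of the 10 p53 target genes (rows) in each library (columns), as log2(value + 1) minus the mean of that gene over the 16 libraries; red is above and blue below its mean. The tumour columns are red for all genes but Gadd45g, except fructose tumour replicate 3, which is below the mean for Cdkn1a, Trp53inp1 and Ccng1. Gadd45g is red in the 5 livers at 5 months and, more weakly, in fructose liver replicate 2 and cornstarch liver replicate 1 of 9 months.

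Of 14 tested genes for p53 and its regulators, 2 rose in tumours and 0 fell, a share near the 13.4% of all genes that rose. Trp53 had 513.9, 344.6, 381.0, 450.1 and 523.8 normalised counts in tumours and 273.5 to 375.2 in livers at 9 months (log2 fold change 0.46, SE 0.14, limma adjusted p = 0.0348). The call was lost with quantile scaling (adjusted p = 0.0553) and without fructose liver replicate 2 or 3, cornstarch liver replicate 1 or 2, fructose tumour replicate 1 or either cornstarch tumour (up to 0.151). Cdkn2a, which encodes the Mdm2 antagonist ARF and the kinase inhibitor p16 from overlapping reading frames, had 86.1, 212.8, 67.9, 265.0 and 207.7 in tumours and 6.0 to 26.0 in livers (3.64, SE 0.36, limma adjusted p = 0.000205). A count per gene does not separate the ARF and p16 transcripts. Mdm4, the partner of Mdm2, and Ppm1d, the phosphatase that resets the damage signal, had log2 fold changes of -0.07 and 0.13 and did not pass.

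Other p53 targets, from lists chosen with earlier results of these data known, were counted in the same fit. The lists were not sorted by whether p53 raises or lowers a gene. A rise in them, here or in the other comparisons, therefore has no set direction for p53 activity. Their counts are read against the 23.8% of all genes called (13.4% higher and 10.5% lower). Of 12 genes of arrest and feedback, 7 were higher in tumours and 0 lower, with a median log2 fold change of 0.90. Gtse1, a mitotic protein that restrains p53, rose by 2.50, the antiproliferative gene Btg2 by 2.54 and the cell cycle phosphatase gene Cdc25a by 0.83 (limma adjusted p = 0.00061, 0.00561 and 0.00634). Gadd45a also rose (0.97, adjusted p = 0.0389), though among the fits that each left out 1 library the call held only without cornstarch liver replicate 3 and without fructose tumour replicate 3 (the other 9 gave adjusted p of 0.0505 to 0.144). Gadd45b, at 0.98, did not pass (0.154). Of 13 apoptosis genes, 4 were higher and 2 lower, with a median of 0.31. The survival gene Bcl2l1 (1.46, adjusted p = 0.000276) and the caspase activator gene Apaf1 (1.09, 0.00502) rose, and the death receptor gene Fas fell (-0.88, 0.00901; 0.0584 without cornstarch tumour replicate 2). Of 20 genes of repair and metabolism, 5 were higher and 1 lower, with a median of 0.25. The share called in either direction was near the 23.8% of all genes, and the share higher was above 13.4%. Psrc1, a microtubule protein gene, had 284.3, 622.9, 166.2, 635.2 and 571.2 counts in tumours and 7.7 to 20.4 in livers (log2 fold change 5.13, SE 0.31, limma adjusted p = 3.8e-05). The DNA polymerase gene Polk (1.25, adjusted p = 0.000313) and the carnitine palmitoyltransferase relative Cpt1c (1.81, 0.00417) were also higher.

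**Figure D4:**
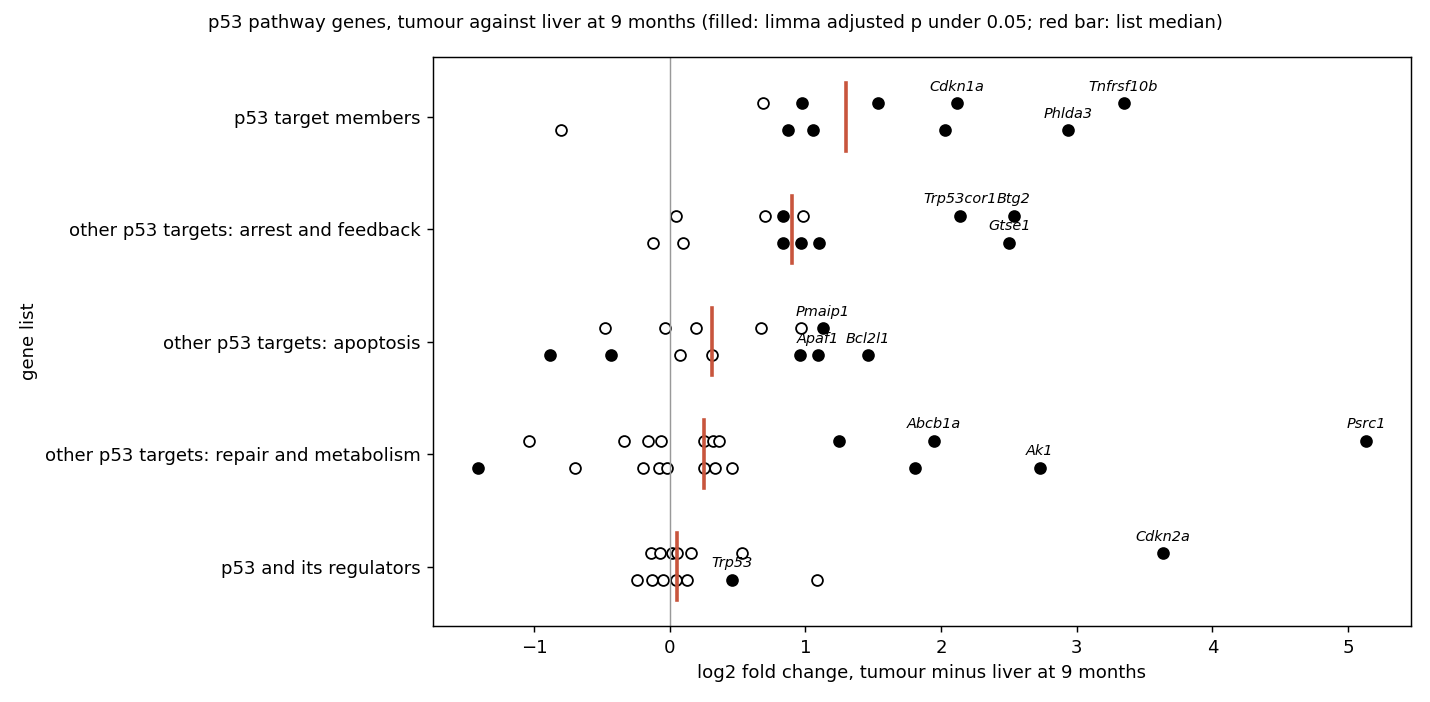
Log2 fold changes for tumour minus liver at 9 months (horizontal axis) of the 10 p53 target genes and of 4 lists of other p53 pathway genes (rows); each point is a gene, filled where it passed the limma threshold of 0.05, and red bars are list medians. The medians are 1.30 for the 10 genes, 0.90 for arrest and feedback, 0.31 for apoptosis, 0.25 for repair and metabolism and 0.05 for the regulators.

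Genes of other programmes and cell types were counted in the same tumours, where 13.4% of all genes were higher and 10.5% lower. The called shares of hepatocyte markers and of cholangiocyte and progenitor markers were near the 23.8% of all genes. Of 29 cell cycle genes, 14 were higher and 0 lower, and their summed counts were 4597 to 12583 in tumours and 2998 to 3757 in livers at 9 months. Of 10 liver tumour markers, 7 were higher and 0 lower, with sums of 14649 to 72540 in tumours and 645 to 7330 in livers. Ly6d (log2 fold change 4.13, limma adjusted p = 0.0001) and Tspan8 (4.41, 0.000722) led them. Stellate cell and myofibroblast markers had 4 higher and 1 lower of 9, and macrophage markers 0 higher and 3 lower of 12. Hepatocyte markers had 1 higher and 2 lower of 10, with 8 negative values, and sums of 1.38e+06 to 2.06e+06 in livers and 1.58e+06 to 4.25e+06 in tumours. Genes of the ATF4 stress response had 6 higher and 0 lower of 11 (sums of 5917 to 13599 in tumours and 5430 to 8628 in livers). Of 5 tested cholangiocyte and progenitor markers 1 was higher and 0 lower, while their sums were 1998 to 9974 in tumours and 832 to 1590 in livers. None of the hepatocyte, stellate cell, macrophage, cell cycle or tumour markers was at 0 in any tumour or liver at 9 months. Their part in the levels of the p53 target genes was not tested.

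In livers at 5 months, Cdkn1a was the gene with the widest difference between diets. It had 1862 and 1329.6 normalised counts under fructose and 319, 591 and 51.9 under cornstarch. The groups did not overlap, and the cornstarch livers lay far apart from one another. The log2 fold change was 2.87 (SE 0.92) and missed the threshold (limma adjusted p = 0.0619). It passed without cornstarch replicate 2 of that age, the highest of its group (3.60, adjusted p = 0.0376), and was smaller without replicate 3, the lowest (1.86, 0.135). It also passed when fructose liver replicate 2 of 9 months was left out, which changes only the estimate of spread (adjusted p = 0.0450).

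None of the 10 genes passed for diet at 5 months, while 14.8% of all genes tested did. At an unadjusted p under 0.05 there were 4, beside 29.7% of all genes, and the count of calls was 0 with edgeR and 0 with DESeq2. Bax had 258 and 359.8 under fructose against 217, 209 and 201 (log2 fold change 0.54, SE 0.18, limma adjusted p = 0.0708). Phlda3 had 37.9 and 75.4 against 30.5, 27.7 and 21.3 (1.0, SE 0.38, adjusted p = 0.102). Tnfrsf10b had 7.29 and 27.4 against 2.86, 4.11 and 6.66, which are 5 and 24 reads against 3, 4 and 5 (1.53, SE 0.56, adjusted p = 0.0927). It passed without fructose replicate 1 of that age, which leaves 1 fructose liver (2.42, adjusted p = 0.0376), and fell to 0.64 (0.652) without replicate 2. For these 3 genes, Cdkn1a and Gadd45g every fructose liver lay above every cornstarch liver, as for 27.1% of all genes. Mdm2, with 483 and 545 against 434, 515 and 507, differed by less than its spread.

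Trp53inp1 had 3032 and 2152 under fructose and 2669, 1571 and 1072 under cornstarch at 5 months (0.63, SE 0.33, limma adjusted p = 0.236). It passed only without cornstarch replicate 1 of that age (0.98, adjusted p = 0.0356). The median log2 fold change of the 10 genes was 0.59 beside -0.0108 over all genes. Over its 4 lists together, the wider pathway had calls at a share no higher than the 14.8% of all genes called in either direction. All of its calls were rises, and the share of all genes called higher was smaller than 14.8%. The apoptosis list alone was above 14.8%. Of 11 arrest and feedback genes, 2 rose and 0 fell: Btg2 had 1803 and 1638 against 397.0, 230.1 and 270.3 (2.56, SE 0.38, limma adjusted p = 0.00198), and Cdc25a rose by 1.0 (0.0122; 0.0521 and 0.126 without fructose replicates 1 and 2 of that age). Of 13 apoptosis genes, 4 rose and 0 fell, with the smallest p for Bcl2l1 (1.28, adjusted p = 0.00149), Apaf1 (1.83, 0.00191) and the inflammatory caspase gene Casp1 (0.99, 0.0418). The Casp1 call was lost without any 1 of the 5 livers of that age, without fructose replicate 3 or cornstarch replicate 1 of 9 months (adjusted p up to 0.223), and with TMM (0.0520) or quantile scaling (0.142). Psrc1 was the 1 that rose of 18 repair and metabolism genes, from 0 to 2.05 counts under cornstarch to 11.7 and 19.4 under fructose (adjusted p = 0.00466, and 0.0836 without fructose replicate 2). None of 14 regulators passed, and Trp53 differed by 0.31 (SE 0.16, adjusted p = 0.245).

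The same fructose livers differed in cell types and in programmes outside p53, where 14.8% of all genes tested were called. Besides the 12 of 12 neutrophil markers, 16 of 16 acute phase genes, 19 of 29 cell cycle genes, 6 of 7 red cell genes, 5 of 12 macrophage markers and 5 of 9 stellate cell markers were higher, and none of these lists had a gene lower. Among the granule genes, Ctsg and Ly6g were at 0 in all 3 cornstarch livers of that age, and Mpo, Camp, Ltf, Ngp and Elane in at least 1. The part of these cells and programmes in the levels of Cdkn1a and the other genes was not tested.

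Under fructose at 9 months, all 10 genes had a positive log2 fold change against cornstarch, yet none passed (limma, 2.54% of all genes called). The count at an unadjusted p under 0.05 was 2, beside 20.5% of all genes, and edgeR and DESeq2 each called 0. Their median was 0.36, beside -0.0176 over all genes. Cdkn1a had 703, 165 and 868 against 161, 115 and 75.0, so that the lowest fructose liver was just above the highest cornstarch liver (2.05, SE 0.82, limma adjusted p = 0.197). Zmat3 had 196, 204 and 223 against 186, 137 and 129, also without overlap (0.48, SE 0.20, adjusted p = 0.204). Groups lay apart in this direction for 12.9% of all genes. Phlda3 overlapped, with 47.9, 51.5 and 87.5 against 35.7, 52.2 and 31.0 (0.62, SE 0.34, adjusted p = 0.329). Tnfrsf10b, Mdm2, Bax and Ccng1 differed by 0.01 to 0.13, each by less than its standard error. The positive signs of these genes were therefore not resolved from 0.

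In the wider pathway at 9 months, 3 genes passed for diet. Mdm4 was lower under fructose, with 842.7, 835.4 and 765.4 against 1138, 1189 and 1625 (log2 fold change -0.68, SE 0.14, limma adjusted p = 0.0380). Fdxr, a mitochondrial reductase gene, was lower by -0.74 (SE 0.17, adjusted p = 0.0493). Pmaip1, which encodes the apoptosis activator NOXA, was higher, with 72.8, 48.2 and 44.4 against 18.3, 24.6 and 9.53 (1.66, SE 0.35, adjusted p = 0.0411). The 3 calls rested on the choice of libraries and settings. All were lost with quantile scaling (adjusted p = 0.0587 for Mdm4, 0.0524 for Fdxr and 0.0705 for Pmaip1). Those of Fdxr (0.0654) and Pmaip1 (0.0675) were also lost with no filter. In 1 fit of all 16 libraries, in a fit of only the groups compared and without the Xist-expressing libraries, all 3 were lost too. Leaving out 1 liver at a time, the Mdm4 call held only without cornstarch replicate 1 or 2 of 9 months or cornstarch replicate 1 of 5 months, and those of Fdxr and Pmaip1 only without cornstarch replicate 2 of 9 months. The highest adjusted p in these fits was 0.111 for Mdm4, 0.149 for Fdxr and 0.147 for Pmaip1. Macrophage markers rose for 6 of 12 and stellate cell markers for 3 of 9 in the same livers, with 0 lower in either list. Over all genes, 2.54% were called for diet at this age. The summed macrophage counts were 12857 to 19390 under fructose and 3084 to 7439 under cornstarch, with no marker at 0. Their part in these differences was not tested.

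In tumours, diet left no detectable difference in the p53 target genes. None passed with limma, edgeR or DESeq2, 0 had an unadjusted p under 0.05 (8.12% of all genes), and no gene's groups were apart (23.4% of all genes). The log2 fold changes lay between -0.45 (Phlda3 and Trp53inp1, SE 0.45 and 0.48) and 0.47 (Gadd45g, SE 0.88), and 3 of 10 were positive. With 3 tumours against 2, no gene of the whole table passed either (0% with limma, 119 genes with DESeq2). Standard errors of 0.81 for Cdkn1a and 0.62 for Eda2r limit what difference could be seen in these genes.

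Gadd45g had the widest difference between ages of the 10 genes, under either diet. It had 1839 and 1339 normalised counts in fructose livers at 5 months and 97.8, 299 and 148 at 9 months. Under cornstarch it had 1331, 693 and 716 at 5 months and 381, 49.2 and 63.1 at 9 months. Every liver at 5 months thus lay above every liver at 9 months within its diet. The log2 fold change under fructose was -3.26 (SE 0.75, limma adjusted p = 0.0420), or 9.58-fold lower at 9 months, and Gadd45g was the 1 gene of 10 called (3.48% of all genes were called, 2.81% as lower). The call did not hold without the 2 Xist-expressing libraries (-3.03, adjusted p = 0.230). It was also lost in 7 of 11 fits that left out 1 library each, with adjusted p of 0.0542 to 0.228. These were the fits without fructose replicates 1, 2 or 3 of 9 months, fructose replicates 1 or 2 of 5 months, or cornstarch replicates 2 or 3 of 5 months. Under cornstarch the fall was of similar size (-3.03, SE 0.67) and did not pass (adjusted p = 0.208). It passed without cornstarch replicate 1 of 9 months, the highest of its group (-3.94, adjusted p = 0.0141).

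The other 9 genes did not pass for age under either diet. Under cornstarch none of the 10 passed, with limma, edgeR or DESeq2, where limma called 0% of all genes. An unadjusted p under 0.05 was reached by 3 of the 10 and by 14.3% of all genes. Tnfrsf10b had 2.86, 4.11 and 6.66 at 5 months and 18.3, 10.8 and 14.3 at 9 months (1.51, SE 0.50, limma adjusted p = 0.273), and Bax 217, 209 and 201 against 251, 284 and 318 (0.44, SE 0.16, adjusted p = 0.294). Those 2 genes, Phlda3 and Gadd45g had ages that did not overlap under cornstarch (18.2% of all genes). Under fructose the ages were apart for 6 genes (39.9% of all genes): Cdkn1a, Trp53inp1 and Gadd45g were lower at 9 months, and Zmat3, Ccng1 and Eda2r higher. Cdkn1a differed by -1.76 (adjusted p = 0.370) and Zmat3 by 0.51 (0.256). Of the other targets, Btg2 (-2.34, adjusted p = 0.00915) and Bcl2l1 (-1.11, 0.00896) fell with age under fructose. Both calls were lost without either fructose liver of 5 months, with adjusted p of 0.0738 and 0.0992 for Btg2 and 0.0737 and 0.102 for Bcl2l1. In the same comparison 12 of 12 neutrophil markers, 11 of 16 acute phase genes, 4 of 7 red cell genes, 4 of 29 cell cycle genes and 2 of 12 macrophage markers fell, and none of these lists had a gene higher. Over all genes, 2.81% were called as lower. The summed neutrophil counts were 24028 and 26472 at 5 months and 317 to 428 at 9 months. Their part in the falls of Gadd45g, Btg2 and Bcl2l1 was not tested. Diet and age comparisons use the same livers, so they are not independent of one another.

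No p53 target gene showed a diet effect that differed between ages or between tissues. Between ages, none of the 10 passed with limma, edgeR or DESeq2 (0.698% of all genes did with limma). An unadjusted p under 0.05 was reached by 11.5% of all genes and by 1 of the 10, Zmat3, at -0.73 (SE 0.29, adjusted p = 0.371). For Cdkn1a the diet effects of 2.87 at 5 months and 2.05 at 9 months differed by 0.82 (SE 1.24, adjusted p = 0.864). Between tumour and liver at 9 months, none passed either with any of the 3 tools, where limma called 0% of all genes, and the lowest unadjusted p was 0.101. The estimates were negative for all 10 genes, from -1.96 for Cdkn1a (SE 1.09) to -0.11 for Mdm2 (SE 0.37), and these estimates share their 11 libraries. All of the 9-month comparisons use the same 6 livers.

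The levels differed widely between the genes. Per kilobase of exon and as the mean of the 6 groups, Gadd45g (429.8 normalised counts per kilobase), Trp53inp1 (350.2) and Ccng1 (282) had the highest levels. Bax (240.5), Cdkn1a (230.2), Mdm2 (128) and Phlda3 (106) followed, and Zmat3 (25.3), Eda2r (17.1) and Tnfrsf10b (11.2) had the lowest. On the same scale Cdkn1a ran from 33.0 in cornstarch livers at 9 months to 449 in fructose livers at 5 months. Gadd45g ran from 55.2 in cornstarch tumours to 1355 in fructose livers at 5 months, and Mdm2 only from 95.5 to 187.

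The order of the groups showed 3 patterns. For Mdm2, Phlda3, Zmat3, Bax, Tnfrsf10b and Eda2r the 2 tumour groups had the highest means, overlapped each other and did not overlap the liver group next in order. Mdm2 still overlapped a liver group lower in the order: its lowest tumour (629) was below the highest cornstarch liver at 9 months (632). Ccng1 and Trp53inp1 also had both tumour groups on top, but each group overlapped its neighbour. Cdkn1a had its highest mean in fructose livers at 5 months (1596), then fructose tumours (1328), cornstarch tumours (967), fructose livers at 9 months (579), cornstarch livers at 5 months (320.4) and cornstarch livers at 9 months (117), and no neighbours in this order were apart. Gadd45g began with fructose livers at 5 months (1589), then cornstarch livers of that age (914), which were apart from the 4 groups at 9 months (64.8 to 182). The 2 diets at 5 months were apart only narrowly. The lowest fructose liver had 1338.75 and the highest cornstarch liver 1331.45, and the diet difference did not pass (limma adjusted p = 0.498).

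Profiles over the 16 libraries were compared by the root mean square difference of centred log2(value + 1), as a description. The genes nearest to Cdkn1a among 10539 with a mean of at least 50 were Tnfrsf21 (1.0), Ggta1 (1.01), Emp1 (1.02), Btg2 (1.02) and Osmr (1.03). Its nearest gene among the p53 targets was Trp53inp1, at 1.19. Among the 10 genes alone, Mdm2 lay nearest to Bax (0.27) and Phlda3 to Tnfrsf10b (0.60), but over all genes Yipf5 was nearest to Mdm2 (0.19) and Golm1 to Phlda3 (0.49). Trp53inp1 was the only gene of the 10 whose nearest profile over all genes was on a p53 list. That gene was Sesn2 (0.32), of the arrest and feedback list. Gadd45g was the farthest from the rest of the 10, with Trp53inp1 nearest at 2.0.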

How the data were processed

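Per the labels' protocols, RNA came from NucleoSpin columns and libraries from a TruSeq mRNA kit. The submitters' processing notes name FastQC, Trim Galore, STAR, RSEM, DESeq2 and GRCm38, without versions or roles, and no source used here gives the strandedness. The deposited values are normalised counts (a signal made by the authors by dividing gene counts by 1 size factor per library): 100% of the values above 0 were whole reads within 0.01 after scaling. Of the 47069 gene identifiers, 46574 (98.9%) were in GENCODE M21, from which positions and exon lengths on GRCm38 were taken, and 22699 were at 0 in every library. Libraries held 11232461 to 38377674 reads.

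Groups came from the labels; replicate numbers follow accession order and pair nothing. limma 3.58.1 (R 4.3.3) was fitted to log2(value + 1) with group means and a mean-variance trend, for genes that reached 10 in 2 or more libraries: 14317 genes in the 11 livers and 14503 in the 11 libraries of 9 months. P-values were adjusted by Benjamini-Hochberg over all genes tested (threshold 0.05) in each of 8 comparisons. The pseudocount makes fold changes of low genes too small. Alternatives were pseudocounts of 0.5 and 5, a filter at 50 or none, TMM and quantile scaling, other sets of libraries, edgeR 4.0.16 (quasi-likelihood) and DESeq2 1.42.0 on the recovered reads, and each library left out. The method was tested on simulated data. The genes and lists were chosen with earlier results of these data known. Named were all 10 genes, Trp53, Mdm4, Ppm1d, Cdkn2a, Gadd45a and Gadd45b, up to 3 called genes with the smallest p in each other p53 list, up to 2 in each context or marker list, and the 5 profiles nearest to Cdkn1a; other genes were named after their values were seen. Tnfrsf10a and Ahsp, from these lists, were not matched and not used.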

Additional observations from a re-analysis of the deposited data

Results flagged for a closer look

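Bcl2l1, a survival gene of the wider p53 pathway, had a diet effect that differed between ages by a test of the difference itself. Its normalised counts at 5 months were 1327.2 and 1294.2 under fructose and 483.9, 514.6 and 623.2 under cornstarch. At 9 months they were 573.3, 639.4 and 605.9 under fructose and 747.3, 528.6 and 507.4 under cornstarch. The diet effect was 1.28 on the log2 scale at 5 months and 0.05 at 9 months, and the difference was 1.24 (SE 0.24, limma adjusted p = 0.0498). The call held in 4 of 21 alternatives: a pseudocount of 5, quantile scaling, DESeq2, and the fit without cornstarch replicate 3 of 9 months (0.0433). It was lost with edgeR (0.0641) and without any 1 of the other 10 livers (0.0594 to 0.284). The neutrophil markers were high in the same 2 fructose livers at 5 months, and their part in the Bcl2l1 level was not tested.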

How the results depend on the processing

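Each comparison was recomputed under 20 to 22 alternatives. Of the 80 pairs of gene and comparison, 28 were a tumour-liver difference or had an unadjusted p under 0.1, and none of these turned its sign. Of the other 52, 31 did under at least 1 alternative, so those genes are best read by their levels. Of the 10 genes, 8 passed for tumour against liver, 8 or 9 under the other settings and 6 to 9 with 1 library left out. Mdm2, Phlda3, Zmat3, Bax, Tnfrsf10b and Eda2r passed in 20 of 20, Cdkn1a in 18 and Trp53inp1 in 11. Ccng1 passed in 2, once with DESeq2 (adjusted p = 0.0458). For age under fructose the count was 1, and 0 without the Xist-expressing libraries. With 1 library left out it was 0 to 1 there, 0 to 1 for diet at 5 months and 0 to 1 for age under cornstarch. In the other comparisons it was 0 throughout. Over all genes, the 2119 calls for diet at 5 months became 973 without the Xist-expressing libraries (459 to 2628 with 1 library left out). The 363 at 9 months became 221 with quantile scaling, 46 without those libraries, 969 with DESeq2 and 0 in a fit of only the groups compared (0 to 448). For tumour against liver 3458 became 1498 to 3623 with 1 library left out, and for age under fructose 498 became 967 with DESeq2, 141 without the Xist-expressing libraries and 29 to 585. The 100 for diet by age ranged from 2 to 318, and the 0 for diet in tumours and for age under cornstarch became 119 and 165 with DESeq2. Higher against lower calls were 1478 and 641 for diet at 5 months (1296 and 883 with TMM, 1226 and 1071 with quantile scaling, which moved the median of all genes by -0.126) and 95 and 403 for age under fructose (200 and 421 with quantile scaling). The cause of these changes was not tested. A fit that leaves 1 library in a group assumes that it varies like the other groups. No paired analysis was possible because the labels do not say whether a tumour and a liver shared a mouse. The replicate numbers follow accession order and give no pairs. Depth limits Tnfrsf10b, with 3 to 5 reads in cornstarch livers at 5 months.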
